A study of Bos taurus with 8 samples.

Results

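Enzymes that supply NADPH and those of the pentose phosphate pathway were compared between bovine blastocysts cultured with BSO (buthionine sulfoximine), a blocker of glutathione synthesis, and control blastocysts. The group was defined by gene symbol: PGD, PGLS, RPIA, TKT and TALDO1 of the pentose phosphate pathway, the NADP-dependent dehydrogenases IDH1, IDH2 and ME1, and the mitochondrial transhydrogenase NNT. These are 9 of the 15216 named genes of the array. The platform annotation gave them 16 of the array's 43794 gene probes, and each of the 16 is reported. TALDO1 had 6 probes, TKT and PGLS had 2 each, and the other 6 genes had 1 each.

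NADPH is the reducing agent with which glutathione reductase returns oxidized glutathione to its reduced form, and it also feeds the thioredoxin system and lipid synthesis. The oxidative branch of the pentose phosphate pathway makes NADPH from phosphorylated glucose, and the non-oxidative branch exchanges the resulting pentose phosphates with glycolytic sugars. Isocitrate dehydrogenases and malic enzyme make NADPH from intermediates of the citric acid cycle, and NNT uses the mitochondrial proton gradient to pass hydride from NADH to NADP.

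BSO embryos and control embryos were produced by maturation, fertilization and culture in vitro from slaughterhouse ovaries. BSO embryos received 0.4 mM BSO from day 3 to day 5 and 0.01 mM from day 5 to day 7, and control embryos received the same synthetic oviductal fluid media without it. At 196 h after fertilization, 4 pools of 10 whole blastocysts were taken for each treatment, so that all cell lineages entered the RNA. Each of the 8 arrays held BSO RNA in one dye and control RNA in the other, with BSO in Cy5 on 4 arrays and in Cy3 on the other 4. Arrays of opposite orientation at the same order within their slides were averaged to 4 replicates. Slide25 carried both arrays of replicates 3 and 4, while Slide114 and Slide115 shared those of replicates 1 and 2. Ratios are the authors' deposited values, on a log2 scale with BSO over control, and normalized ratios show unequal change between genes, not change in total RNA. The sources do not say whether pools came from separate cultures, so a p-value here reflects only how pools varied, and that variation may be technical.

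Of the cell type markers, all 7 trophectoderm genes and all 3 epiblast genes were above the brightness limit. So were both of the hypoblast genes with a probe and 7 of 9 cumulus and granulosa genes. The cumulus and granulosa genes AMH and FOXL2 were below it. Of all 15216 named genes, 13678 were above the limit, so passing it says little about a cell type. SOX17, SOX2, HAS2 and TNFAIP6 passed it but were dim, at mean log2 intensities of 7.35, 7.46, 7.33 and 7.41. FSHR, CDX2, PTX3 and GATA3 were dim too, at 7.61, 7.66, 7.69 and 8.03. At an unadjusted limma p below 0.05, 2 trophectoderm markers (KRT8 and IFNT), 1 epiblast marker (SOX2) and 1 cumulus and granulosa marker (FSHR) were lower in BSO, and no marker was higher, where 14.0% of all named genes were lower and 13.8% higher. IFNT is a trophoblast interferon from a multicopy family whose copies the probe may not separate. IFNT was at -1.10, KRT18 at -0.60 and KRT8 at -0.22, with limma adjusted p of 0.109, 0.258 and 0.151. The KRT8 probe was near the top of the scale, at a mean log2 intensity of 15.08, where a ratio can be compressed. The other trophectoderm markers were nearer 0 or above it, TFAP2C at 0.15, CDX2 at 0.025, GATA3 at -0.021 and GATA2 at -0.081. The medians of the lists were -0.081, -0.016, 0.096 and 0.096 for trophectoderm, epiblast, hypoblast and cumulus and granulosa genes, and their part in the values below was not tested. In whole blastocysts, fewer cells of a type and less RNA per cell cannot be told apart.

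No member passed the test over all probes. Testing required a spot above the brightness limit, the 95th percentile of the array's negative-control spots, on 4 or more of the 8 arrays in either treatment's channel, which left 14 member probes of 8 genes. None of these 14 had a limma adjusted p below 0.05, a threshold that 0.595% of the 36995 tested probes passed, 0.262% higher and 0.332% lower in BSO. At an unadjusted limma p below 0.05, 5 member probes of 5 genes were lower in BSO, where 13.4% of all probes were, and 1 was higher, where 12.6% were. The 5 lower probes belonged to PGD, TALDO1, TKT, PGLS and ME1. The mean was below 0 for 7 of the 14 member probes, against 44.1% of all probes. With each gene at its brightest probe, the median of the 8 genes was -0.13, against 0.017 for all 13678 named genes. It was -0.091 with the mean over each gene's probes, and the median over all 14 member probes was -0.033, against 0.019 for all probes. The medians of the 8 genes were -0.028, -0.014, -0.11 and -0.20 in replicates 1 to 4, so the medians of replicates 1 and 2 were near 0.

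**Figure D1:**
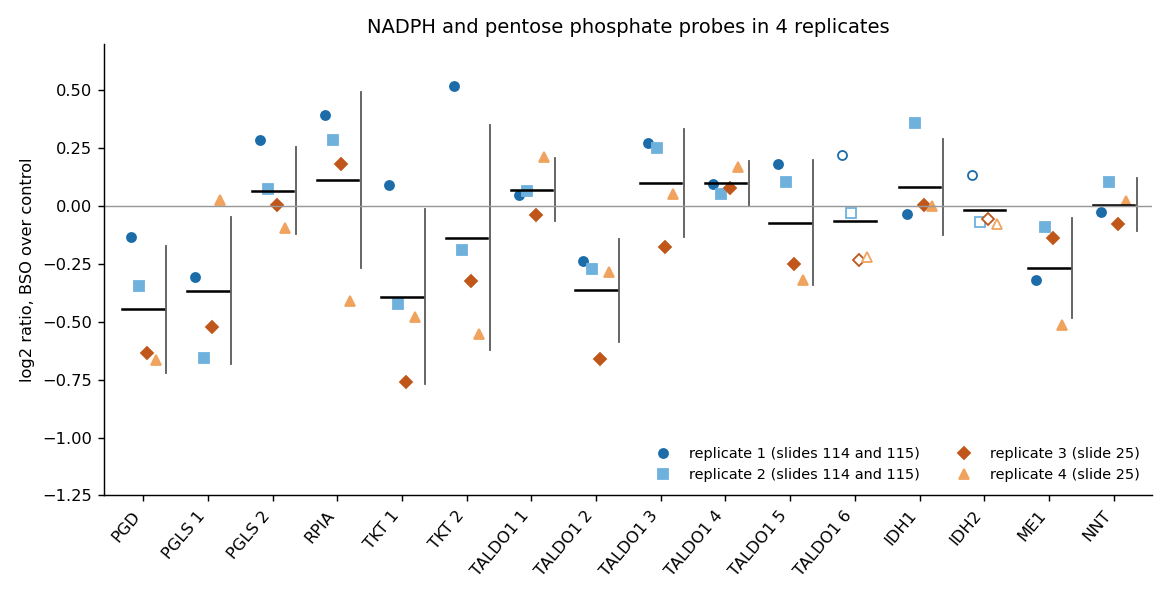
Log2 ratio of BSO over control for every member probe. Points are the 4 replicates, black bars their means and grey lines the limma 95% intervals; open points are probes below the brightness limit, and probes of 1 gene are numbered from the brightest. PGD, the second TALDO1 probe and ME1 are below 0 in all 4 replicates, while IDH1 and NNT are centred near 0.

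In the oxidative branch, PGD had the lowest mean of the 16 probes. PGD (probe EMBV3_42410), the 6-phosphogluconate dehydrogenase that carries out the branch's second NADPH-forming step, read -0.13, -0.35, -0.63 and -0.67 in replicates 1 to 4. All 4 replicates and all 8 arrays were below 0, as were all 4 replicates of 3 member probes and of 17.0% of all tested probes. The mean was -0.45 ± 0.25 (SD, n = 4), or 1.36-fold lower in BSO, with a limma 95% interval of -0.72 to -0.17. The limma p was 0.00914 before adjustment and 0.0983 after it. In a fit of the 8 single arrays, with a dye term and matched arrays tied by a replicate block, the adjusted p of PGD was 0.0140. In that fit 3 member probes had an adjusted p below 0.05, beside 1916 probes higher and 2547 lower in BSO among all 36995 tested. The main fit gave 97 higher and 123 lower, so the block fit called many more probes of the whole array. The probe was bright, at the 95.9th percentile of gene probes and at 6.98% to 22.8% of the brightest spot of its array.

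The raw intensities behind the PGD ratio varied between replicates as well as between treatments. Averaged over both dyes, PGD read 3321, 3237, 5482 and 3726 in BSO pools, against 3606, 3978, 8305 and 5873 in control pools, in replicates 1 to 4. BSO was below control in every replicate. Replicates 3 and 4, with the largest gaps, also had the brightest control pools. These intensities are not normalized, and over all probes the BSO channel was the brighter one on 6 of the 8 arrays by its median.

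PGLS, the 6-phosphogluconolactonase that opens the lactone ring between the branch's dehydrogenase steps, had probes with means of opposite sign and overlapping intervals. The brighter probe (EMBV3_27531) read -0.31, -0.66, -0.52 and 0.024 in replicates 1 to 4, with a mean of -0.37 ± 0.30 (SD, n = 4) and a limma adjusted p of 0.159. Replicate 4 was the only one above 0, and leaving out 1 replicate gave means of -0.50 (without replicate 4) to -0.27 (without replicate 2). The unadjusted limma p of 0.0321 became 0.0717, 0.0958 and 0.110 without replicates 1, 2 and 3. The adjusted p was 0.0378 with the replicate block on all 8 arrays, a fit that called 1916 probes higher and 2547 lower. The dimmer probe (EMBV3_03396) had a mean of 0.067 ± 0.162 (SD, n = 4) and replicates between -0.096 and 0.29. The difference between the probes was not tested, and the annotation does not say which part of the transcript each one reads.

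**Figure D2:**
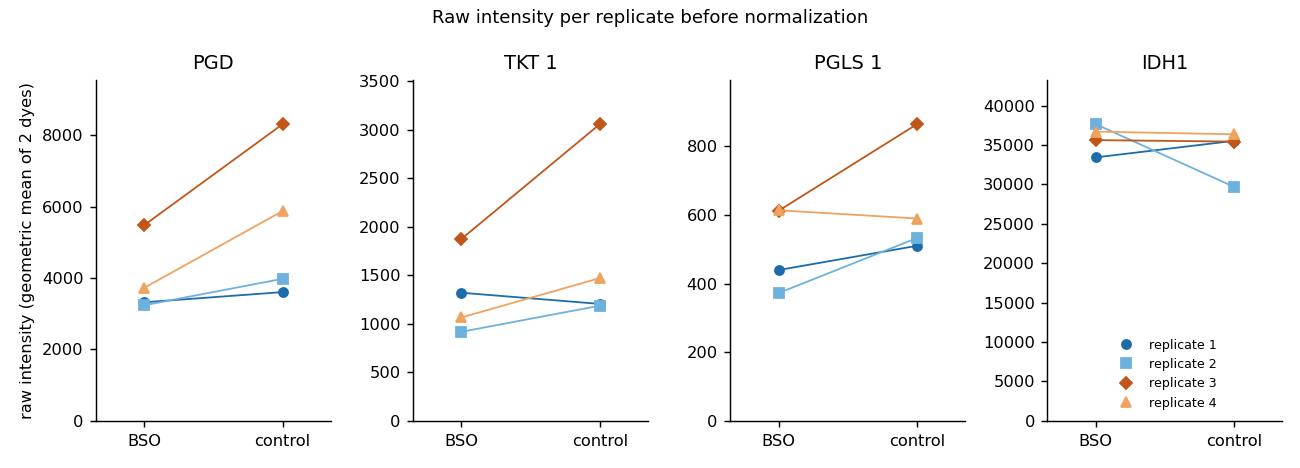
Raw intensity of the brightest PGD, TKT, PGLS and IDH1 probes in BSO (left) and control (right) pools, with 1 line per replicate and each point the geometric mean of both dyes, before normalization. PGD is lower in BSO in every replicate, TKT in 3 of 4, and IDH1 lies between 29687 and 37632 throughout.

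In the non-oxidative branch, TKT and RPIA had wide spreads and the 6 TALDO1 probes pointed both ways. RPIA (EMBV3_06692), the isomerase that forms ribose 5-phosphate, read 0.39, 0.28, 0.18 and -0.41 in replicates 1 to 4. Replicate 4 was opposite in sign to the rest on both of its arrays, at -0.34 with BSO in Cy5 and -0.47 with BSO in Cy3. The RPIA mean was 0.11 ± 0.36 (SD, n = 4), with a limma 95% interval of -0.27 to 0.49 and an adjusted p of 0.645. Without replicate 4 it was 0.29, with a limma adjusted p of 0.163, and without replicate 1 it was 0.019. Values within that interval, in either direction, were therefore not distinguishable from the spread.

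TKT, the transketolase that moves 2-carbon units between sugar phosphates, was lower in 3 of 4 replicates on both probes. Its brighter probe (EMBV3_23473) read 0.093, -0.42, -0.76 and -0.48 in replicates 1 to 4, so replicate 1 stood alone above 0. The mean was -0.39 ± 0.36 (SD, n = 4), or 1.31-fold lower, with a limma p of 0.0444 and an adjusted p of 0.182. Without replicate 1 the mean was -0.55, and without replicate 3 it was -0.27. The unadjusted limma p was 0.112 to 0.131 without replicate 2, 3 or 4. The dimmer probe (EMBV3_12001) had the same sign as the brighter one in each replicate, at 0.52, -0.19, -0.32 and -0.55. It averaged -0.35 with BSO in Cy5 and 0.077 with BSO in Cy3, with a limma adjusted p of 0.000679 for the difference. Its mean was -0.14 ± 0.46 (SD, n = 4), with the largest SD of the 16 probes and a limma adjusted p of 0.664. The raw intensities of the brighter probe were 1321, 918, 1875 and 1066 in BSO pools, against 1206, 1187, 3057 and 1471 in control pools.

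TALDO1 encodes transaldolase, which moves 3-carbon units in the same branch. Its brightest probe (EMBV3_38340) read 0.047, 0.065, -0.040 and 0.21 in replicates 1 to 4, with a mean of 0.071 ± 0.104 (SD, n = 4) and a limma 95% interval of -0.065 to 0.21. The second probe (EMBV3_40368) lay below 0 throughout, at -0.24, -0.27, -0.66 and -0.28, with replicate 3 far below the others. Its mean was -0.36 ± 0.20 (SD, n = 4), or 1.29-fold lower, with a limma p of 0.00874 and an adjusted p of 0.0967. The intervals of these TALDO1 probes did not overlap, the second running from -0.59 to -0.14. With the replicate block on all 8 arrays, the adjusted p of the second probe was 0.0135, while that of the brightest was 0.448. That fit called 1916 probes higher and 2547 lower over the whole array.

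The 4 other TALDO1 probes were dim. The third (EMBV3_05354) had a mean of 0.099 and the fifth (EMBV3_23521) a mean of -0.071, with limma adjusted p of 0.508 and 0.684. The fourth (EMBV3_17544) was above 0 in all 4 replicates, as 21.3% of all probes were, at 0.053 to 0.17, with a mean of 0.099 ± 0.049 (SD, n = 4), a limma p of 0.0473 and an adjusted p of 0.187. It was the only member probe higher in BSO at an unadjusted p below 0.05. Without any 1 replicate its unadjusted limma p was between 0.0715 and 0.135. The sixth (EMBV3_14473) was above the brightness limit on 0 of 8 arrays in either channel, so its mean of -0.066 is not well above background and was not tested. A single direction for TALDO1 therefore could not be read from its probes.

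Among the NADP-dependent dehydrogenases, ME1 lay below 0 and the isocitrate dehydrogenases gave little information. ME1 (EMBV3_08984), the cytosolic malic enzyme, read -0.32, -0.092, -0.14 and -0.52 in replicates 1 to 4. All 4 replicates and all 8 arrays were below 0, as for PGD and the second TALDO1 probe. The mean was -0.27 ± 0.19 (SD, n = 4), or 1.20-fold lower in BSO, with a limma 95% interval of -0.48 to -0.050. The limma p was 0.0254 before adjustment and 0.144 after it, and the adjusted p was 0.0621 with the replicate block on all 8 arrays. Without replicate 1 and without replicate 4 the unadjusted limma p was 0.0803 and 0.0520. The ME1 probe was dim, at a mean log2 intensity of 7.71. It was above the brightness limit on 7 of 8 arrays in the BSO channel and on 8 of 8 in the control channel. Before normalization its intensity, averaged over both dyes, was higher in BSO in every replicate, unlike that of PGD. It read 193, 202, 270 and 210 in BSO pools, against 188, 167, 261 and 201 in control pools. The lower ME1 ratio thus appeared only in the normalized values.

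IDH1 (EMBV3_14915), the cytosolic and peroxisomal NADP-dependent isocitrate dehydrogenase, was at the top of the scale. Its raw intensity was 65.6% to 98.9% of the brightest spot over all arrays and channels, and its probe was at the 99.8th percentile of gene probes. Replicates 1, 3 and 4 were at -0.032, 0.0038 and 0.0010, and replicate 2 was at 0.36. Of its arrays, the one with BSO in Cy5 was at 0.55 and the one with BSO in Cy3 at 0.16, both above the other 6 arrays, which were between -0.065 and 0.020. On the array at 0.55 the control pool read 24172, while it read 33620 to 37543 on the other 7 arrays. The mean was 0.083 ± 0.185 (SD, n = 4), with a limma adjusted p of 0.536, and without replicate 2 it was -0.0092. At that brightness the scale can compress a ratio, so the values near 0 do not bound the change in IDH1.

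IDH2 (EMBV3_19901), the mitochondrial NADP-dependent counterpart, was above the brightness limit on 0 of 8 arrays in either channel. It had a mean log2 intensity of 6.88 and was not tested, so its ratios, between -0.076 and 0.13 over the replicates, are not well above background. NNT (EMBV3_10797), the transhydrogenase, was dim at 7.40 but above the limit on all 8 arrays in both channels. It read -0.024, 0.10, -0.078 and 0.021 in replicates 1 to 4. Its mean was 0.0057 ± 0.0764 (SD, n = 4), with a limma 95% interval of -0.11 to 0.12 and an adjusted p of 0.943. The 5th and 95th percentiles of all probes as dim as NNT were -0.17 and 0.11, so this interval covered most of the range that such probes showed.

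The mean of both dye orientations was needed for several of these probes. In the deposited values, 52.6% of all probes differed between BSO in Cy5 and BSO in Cy3 at a limma adjusted p below 0.05, and so did 8 of the 14 member probes. Without adjustment these counts were 58.5% of all probes and 9 member probes. For 6 member probes the orientation means had opposite signs, as they had for 48.5% of all probes. The third TALDO1 probe averaged -0.25 with BSO in Cy5 and 0.45 with BSO in Cy3, with no overlap between the 4 arrays of each orientation. The dimmer PGLS probe averaged -0.24 with BSO in Cy5 and 0.37 with BSO in Cy3. Both differences, -0.70 and -0.60, were larger than any mean BSO effect among the members.

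The probes lowest in BSO kept their sign in each orientation. PGD averaged -0.53 with BSO in Cy5 and -0.36 with BSO in Cy3, with a limma adjusted p of 0.0400 for the difference. The second TALDO1 probe averaged -0.55 with BSO in Cy5 and -0.17 with BSO in Cy3, with a limma adjusted p of 0.000554 for the difference. The brighter TKT probe averaged -0.37 and -0.42, the brighter PGLS probe -0.40 and -0.33, and ME1 -0.32 and -0.21, with BSO in Cy5 and in Cy3 in that order. The differences of these 3 probes had limma adjusted p of 0.206 to 0.552.

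**Figure D3:**
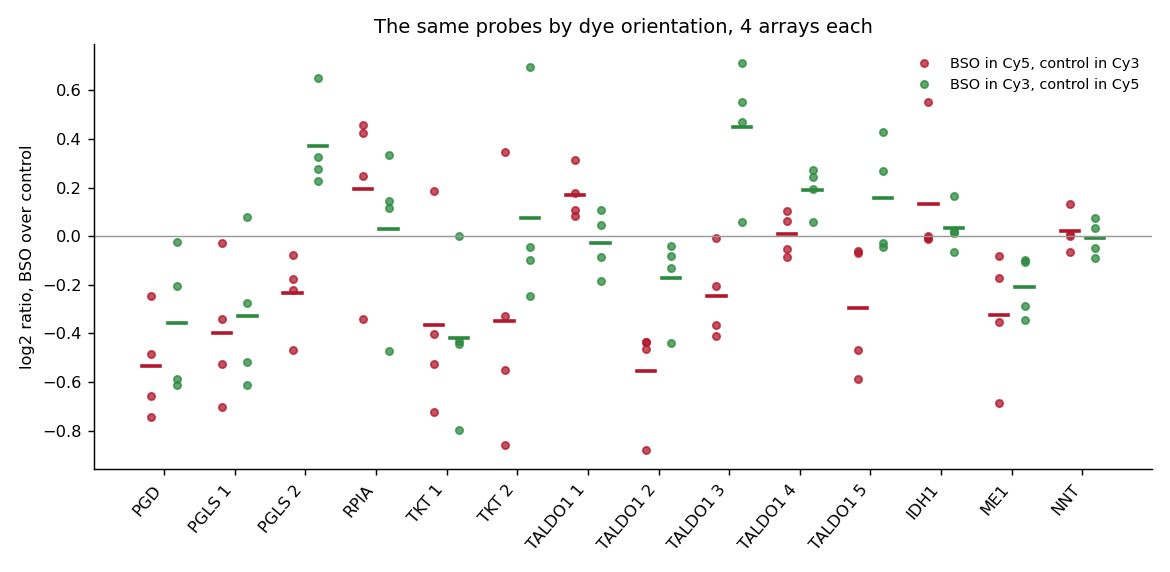
Log2 ratio of BSO over control on each array for the 14 tested member probes, with BSO in Cy5 (left) and BSO in Cy3 (right); bars are means of 4 arrays. PGD, the second TALDO1 probe and ME1 are below 0 on all 8 arrays, while the third TALDO1 probe and the second PGLS probe change sign with the dye.

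Replicates on Slide25 and on Slide114 and Slide115 were compared as the batches that the labels give. PGD averaged -0.65 on Slide25 and -0.24 on Slide114 and Slide115, a difference of -0.41 ± 0.10 (limma SE) with an unadjusted limma p of 0.0186 and an adjusted p of 0.650. The fifth TALDO1 probe averaged -0.28 on Slide25 and 0.14 on Slide114 and Slide115, with a limma adjusted p of 0.650 for the difference. The brighter TKT probe averaged -0.62 and -0.17 and RPIA -0.11 and 0.34, in the same order, with limma adjusted p of 0.718 and 0.722 for the differences. The brighter PGLS probe ran the other way, at -0.25 on Slide25 and -0.48 on Slide114 and Slide115. In all, 11 of the 14 member probes were lower on Slide25, where 47.4% of all probes were. At an unadjusted limma p below 0.05 the slide sets differed for 3 member probes and for 7.63% of all probes, and with adjustment for 0 member probes and 0 of all probes.

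Set among probes of like brightness, no member was extreme. Tested probes were divided into 10 bins by brightness, and the spread of log2 ratios widened from dim to bright probes. The lowest bin ran from -0.17 to 0.10 between its 5th and 95th percentiles, and the highest from -0.57 to 0.48. All 14 member probes lay inside the 5th and 95th percentiles of their own bin. PGD, at -0.45, was in the highest bin, where 16.7% of probes were lower in BSO at an unadjusted limma p below 0.05. ME1, at -0.27, came closest to the edge of its bin, whose 5th percentile was -0.29.

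**Figure D4:**
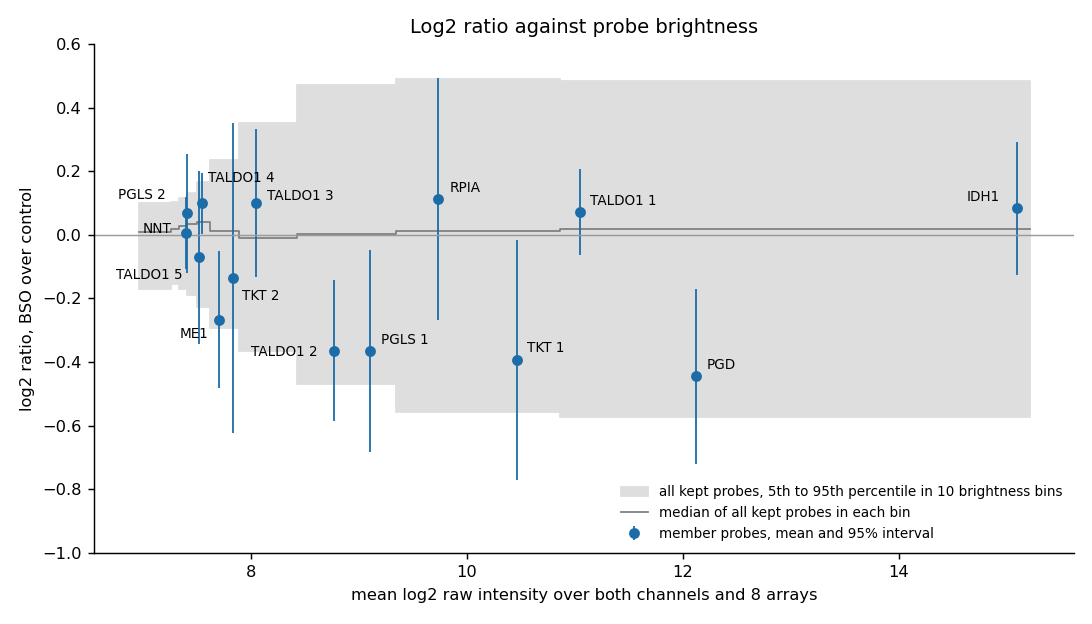
Log2 ratio of BSO over control against mean log2 raw intensity for the 14 tested member probes (points with limma 95% intervals) and for all 36995 tested probes (grey band, 5th to 95th percentile in each of 10 brightness bins). Every member mean lies inside the band, and the band narrows toward dim probes.

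Other genes of NADPH metabolism were taken from lists of related enzymes, each gene at its brightest tested probe. At an unadjusted limma p below 0.05, 14.0% of all 13678 named genes were lower in BSO and 13.8% were higher. None of the 35 listed genes tested had an adjusted p below 0.05. Of 9 further pentose phosphate genes tested, 1 was lower and 2 were higher at the unadjusted threshold, with a median of 0.20. RPE, the epimerase that works beside RPIA, was at 0.46 ± 0.13 (limma SE, n = 4), with all 4 replicates above 0 and a limma adjusted p of 0.120, and its other probe was at 0.12. SHPK, a kinase of the sugar sedoheptulose, was at 0.20 ± 0.05, and RBKS, the ribokinase, at -0.36 ± 0.09, with its 2 other probes at -0.047 and -0.042. PRPS1, which makes phosphoribosyl pyrophosphate from ribose 5-phosphate, was at 0.26 ± 0.19 with a limma adjusted p of 0.424.

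Of 10 tested genes for other NADP-linked and folate enzymes and for NAD kinase, 1 was lower and 1 higher at the unadjusted threshold, with a median of -0.083. The higher one, MTHFD1L, is a mitochondrial folate synthetase without dehydrogenase activity, so it forms no NADPH itself. It was at 0.50 ± 0.07 (limma SE, n = 4) and its other probe at 0.39, with a limma adjusted p of 0.0607 for the brighter one. ALDH1L1, a cytosolic folate dehydrogenase that forms NADPH, was at -0.13 ± 0.03. Of the 3 subunits of the NAD-linked isocitrate dehydrogenase, 0 were lower and 1 was higher at that threshold, with a median of -0.14. The higher one was IDH3A, at 0.35 ± 0.10 with a limma adjusted p of 0.124.

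Among 9 tested reductases that use NADPH, 3 were lower and 1 was higher at the unadjusted threshold, with a median of -0.17. GSR, the glutathione reductase, was at 0.32 ± 0.08 (limma SE, n = 4), with all 4 replicates above 0 and a limma adjusted p of 0.105. AKR1B1 and AKR1A1, aldo-keto reductases, were at -0.50 ± 0.10 and -0.28 ± 0.09, with limma adjusted p of 0.0801 and 0.165, and their other probes at -0.22 and -0.013. The remaining lower one, TXNRD2, a mitochondrial thioredoxin reductase, was at -0.23 ± 0.07 and is named here after its value was seen. Of 4 tested genes of NADPH-using lipid synthesis, 1 was lower, the sterol reductase TM7SF2 at -0.50 ± 0.11, while its other probe was at -0.028.

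**Figure D5:**
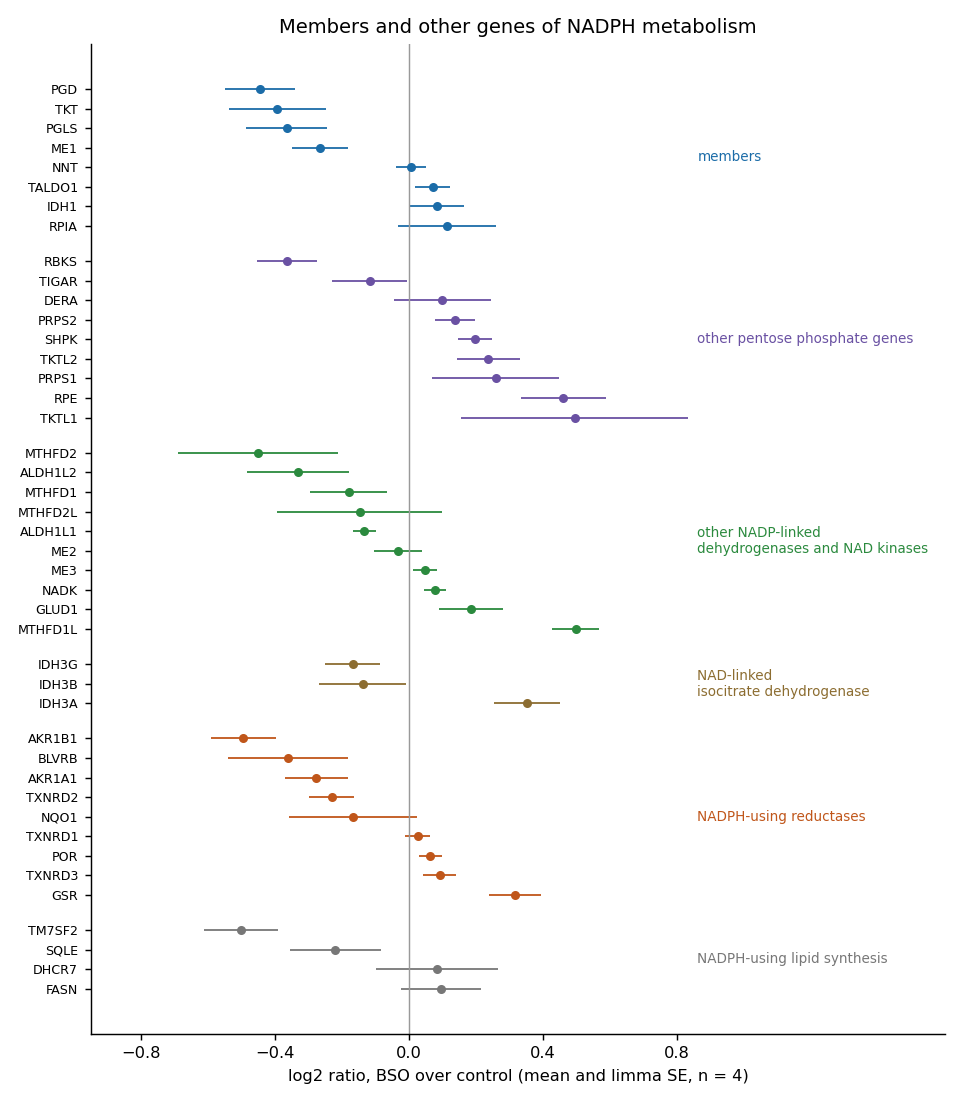
Log2 ratio of BSO over control, each gene at its brightest tested probe, with the limma SE over 4 replicates, for the 8 tested member genes and 35 related genes in 5 lists. PGD, TKT, PGLS and ME1 lie below 0 among the members, and RPE and RBKS lie on opposite sides of 0 among the further pentose phosphate genes.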

How the data were processed

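The deposited table held 1 log2 value per probe and array. The submitters' processing notes name limma, with no version; how background was corrected and arrays normalized is not given in the sources used here. Over probes, the deposited values correlated at 0.889 to 0.989 with log2 BSO over control normalized from the scanner files (normexp, loess). With scanner ratios that were not normalized the correlation was 0.633 to 0.969. These correlations set the direction of the deposited values, whose array medians lay between 0.0011 and 0.013. The deposited scanner files held raw intensity of each spot and its background at 532 nm (Cy3) and 635 nm (Cy5), per the file headers. From these intensity values came brightness, the limit set by 153 negative-control spots, and an alternative set of ratios (normexp with offset 50, loess).

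Matched arrays were averaged and the mean of 4 replicates was tested against 0 with limma 3.58.1 in R 4.3.3 (lmFit, eBayes), with Benjamini-Hochberg adjustment over 36995 probes. The labels do not say which arrays share pools. Deviations from the orientation means correlated at 0.726 to 0.853 between matched arrays and at -0.027 or below between others, and deviations within an orientation sum to 0, so part of that gap is built in. The replicate block fit had a dye term and a correlation of 0.568. Slide sets and dye orientations were compared by terms in limma fits.

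The platform annotation named 21790 gene probes with 1 symbol and left 22004 unnamed, and 0 had more than 1 symbol. All 9 member symbols were current in a table of RefSeq genes. No genome build was named, so no coordinates are given. The precision is limited by the number of pools, 4 for each treatment. Every probe of each member is reported; other listed genes are named if they had an unadjusted p below 0.05, up to 3 a list, besides RPE and PRPS1. The members and lists were chosen with earlier results of these data known. The fits were tested on simulated data.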

Additional observations from a re-analysis of the deposited data

Results flagged for a closer look

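Among the 14 tested member probes, 2 had 1 replicate far from the other 3, by the gap to its nearest neighbour over the whole range. Chance marks about 1 in 20 such groups of 4. IDH1 was at 0.36 in replicate 2 and between -0.032 and 0.0038 in the others, a gap of 90.8% of the range. The second TALDO1 probe was at -0.66 in replicate 3 and between -0.28 and -0.24 in the others, a gap of 89.3% of the range. Without replicate 3 its mean was -0.27, with a limma p of 0.00543 before adjustment and an adjusted p of 0.190.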

How the results depend on the processing

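Counts over all probes depended on the fit, and the cause was not tested. At an adjusted limma p below 0.05, 97 probes were higher and 123 lower in BSO with the deposited values. From the scanner values the counts were 0 and 0 with normexp and loess, 139 and 329 without background correction, and 0 and 0 with median centring alone. A stricter brightness filter gave 111 and 197. The replicate block on all 8 arrays gave 1916 and 2547. All 8 arrays with no replicate block gave 4276 and 4696, and a crossed pairing within slide sets 4926 and 5271. Without a block, matched arrays count as independent, although their deviations correlated at 0.726 to 0.853. The crossed pairing averages arrays of different replicates, so differences between replicates partly cancel. Both fits understate the error if matched arrays share pools. With the block on scanner values, chosen after seeing the data, the counts were 1408 and 2540. The slide set as a block, either slide set alone and each left-out replicate (0 to 0 probes) gave 0 in both directions, with fewer samples or degrees of freedom. BSO in Cy5 alone gave 4086 and 4653, and BSO in Cy3 alone 2038 and 2070. In a single orientation, BSO and dye cannot be told apart. At a limma adjusted p below 0.05, 52.6% of all probes differed between orientations.

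Member probes with an adjusted p below 0.05 numbered 0, but 3 with the replicate block and 5 with the block on scanner values. They numbered 5 without a block, 5 with the crossed pairing and 2 with BSO in Cy5 alone. The limits given above for the fit without a block, the crossed pairing and single orientations hold for the member probes too. Those lower at an unadjusted p below 0.05 numbered 5, but 3 with the stricter filter, which kept only 6 member genes. They numbered 2 on Slide114 and Slide115, 7 with BSO in Cy5 alone, 4 with BSO in Cy3 alone, and 3 to 4 without 1 replicate. Those higher numbered 1, but 0 in the 2 scanner alternatives with loess, the stricter filter, both block fits, the slide set block and Slide25 alone. They numbered 2 on Slide114 and Slide115, 3 with BSO in Cy3 alone, and 0 to 1 without 1 replicate. The share of all probes at the unadjusted threshold was not counted for these alternatives, so no enrichment can be read from the member counts.

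Over single probes and alternatives, 206 values kept their direction and side of the threshold, 20 passed it newly and 18 turned sign. NNT was at -0.0074 without background correction. On Slide25 alone the third TALDO1 probe was at -0.064, the dimmer PGLS probe at -0.047, RPIA at -0.11 and NNT at -0.028. On Slide114 and Slide115 the fifth TALDO1 probe was at 0.14 and the dimmer TKT probe at 0.17. With BSO in Cy5 alone the third TALDO1 probe was at -0.25 and the dimmer PGLS probe at -0.24. With BSO in Cy3 alone the brightest TALDO1 probe was at -0.028, the fifth at 0.16, the dimmer TKT probe at 0.077 and NNT at -0.0084. Leaving out each replicate in turn gave -0.027 to 0.033 for NNT, -0.0092 to 0.12 for IDH1, -0.0062 to 0.12 for the dimmer PGLS probe, -0.36 to 0.0030 for the dimmer TKT probe and -0.16 to 0.011 for the fifth TALDO1 probe. The cause of these turns was not tested. The median of the member genes was between -0.18 and -0.063 in the alternatives run, over 8 genes except with the stricter filter, which kept 6. Spots near the negative controls or near the top of the scale limited what IDH2, the sixth TALDO1 probe and IDH1 could show.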
